A study of Mus musculus with 8 samples.

Results

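The genes described here are the 10 AP-1 transcription factor genes *Fos*, *Fosl1*, *Fosl2*, *Jun*, *Junb*, *Jund*, *Jdp2*, *Atf3*, *Batf* and *Batf3*, chosen by name from the 46517 genes in the table. All 10 were found by Ensembl identifier, and all 10 passed the filter on low values, as did 14139 genes in all. They were measured by RNAseq in osteoclasts, the multinucleated cells that degrade bone, grown from the femoral marrow of mice 6 to 8 weeks old. The 4 control mice were Elmo1+/-, and the other 4 were Elmo1-/-, a global knockout with no cell type spared. Each mouse gave 1 library. The titles of the control libraries read WT, while their genotype labels give Elmo1+/-, so the controls carried 1 deleted allele themselves and no Elmo1+/+ library was compared here. Cultures of both genotypes were treated alike, for 7 days, with RANKL as a GST fusion protein (50 ng/ml) and with 10% L929 cell conditioned medium as a source of M-CSF. Bulk RNA from a dish was read, so fewer cells of a type and less RNA per cell cannot be told apart. The comparison asks whether the AP-1 genes were expressed differently in osteoclasts that lack ELMO1, a cytoplasmic adaptor that works with DOCK proteins upstream of the GTPase RAC.

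AP-1 is a family of dimers. Its subunits share a basic region that contacts DNA and a leucine zipper that holds a pair of subunits together. Fos proteins need a Jun partner to bind DNA, whereas Jun proteins can also pair with each other. JDP2, ATF3, BATF and BATF3 are smaller proteins of the same kind that lack the long activating regions of Fos and Jun, and they can repress or redirect AP-1 sites. In the osteoclast lineage RANK, the receptor for RANKL, signals through TRAF6 and the JNK and ERK kinases to AP-1, and c-FOS is needed for precursors to become osteoclasts. Fos then acts with NFATc1, the factor that drives the genes of the mature cell.

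The libraries held between 20905502 and 40846651 reads on genes. Each deposited value is a normalized count, that is, the reads on a gene divided by 1 size factor per library. *Elmo1* (ENSMUSG00000041112) checked the labels, at 1423 to 1769 normalized counts in Elmo1+/- and 274 to 316 in Elmo1-/- libraries (log2 fold change -2.44, standard error 0.09, adjusted p = 8.4e-06 from limma). The libraries numbered 1 and 2 of both genotypes lay apart from those numbered 3 and 4 on the first principal component, which held 62.3% of the variance of log2 values. These sets were seen in the values, and no label names a batch or date for them. The summed level of 10 osteoclast marker genes lay between 450222 and 692799 normalized counts in libraries 1 and 2 and between 1032689 and 1177636 in libraries 3 and 4. The sum of 8 macrophage markers went the other way, with a range of 1547364 to 1930287 in libraries 1 and 2 and of 1167507 to 1269190 in libraries 3 and 4. The sums are not scaled by length, so the markers with the most counts weigh most. In Elmo1+/- library 1, *Mmp9*, *Ctsk* and *Acp5* gave 369642, 154959 and 134881 of the 692799. None of these 18 markers was at 0 in any library. Markers of other marrow cells were low beside these, with sums of 10346 to 22561 for 8 neutrophil genes, 1183 to 2118 for 8 dendritic cell genes, 537 to 1281 for 6 stromal genes, 46.6 to 237 for 6 B and T cell genes and 4.57 to 18.4 for 5 mast cell and basophil genes. *Clec9a* of dendritic cells, *Alpl* of stromal cells, *Ms4a1*, *Cd3e* and *Cd8a* of lymphocytes and *Cpa3*, *Tpsb2*, *Fcer1a* and *Ms4a2* of mast cells and basophils were at 0 in at least 1 library.

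Several AP-1 genes are neighbours in the genome. In the GENCODE annotation of GRCm38, *Fos* (chr12:85473890-85477273), *Jdp2* (chr12:85599027-85639878) and *Batf* (chr12:85686669-85709087) follow each other on the plus strand, with 122 kb between *Fos* and *Jdp2*, 46.8 kb between *Jdp2* and *Batf*, and 0 other protein-coding genes in either gap. *Batf3* (chr1:191097847-191108945) and *Atf3* (chr1:191170296-191218039) lie 61.4 kb apart. *Junb* (chr8:84974484-84978718) and *Jund* (chr8:70698949-70700616) share chromosome 8 but lie 14274 kb apart. *Jun* is at chr4:95049034-95052222, *Fosl1* at chr19:5447547-5455946 and *Fosl2* at chr5:32135801-32157842. The build that the authors used is not given in the sources used here, so these positions are those of the annotation matched by identifier.

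The sequences before the starts of the chromosome 12 neighbours are shown because these adjacent genes differed in level and in their pattern over the libraries. They were read 5′ to 3′ on the plus strand from RefSeq (GRCm38.p6), as the part of the 250 bases before each RefSeq start that lies outside GENCODE exons of the gene. Capitals mark TGACGT, the core of the cAMP response element that ATF and Jun dimers can bind, on either strand, and TATAAA. The window of the third *Jdp2* start, which held neither, is not printed.
Fos (chr12:85473640-85473889): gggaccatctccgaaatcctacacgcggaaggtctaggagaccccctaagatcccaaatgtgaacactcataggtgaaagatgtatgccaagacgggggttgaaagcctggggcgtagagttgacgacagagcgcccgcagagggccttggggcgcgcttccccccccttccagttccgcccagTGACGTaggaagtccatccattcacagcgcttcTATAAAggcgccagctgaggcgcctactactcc
Jdp2, first start (chr12:85598855-85599026): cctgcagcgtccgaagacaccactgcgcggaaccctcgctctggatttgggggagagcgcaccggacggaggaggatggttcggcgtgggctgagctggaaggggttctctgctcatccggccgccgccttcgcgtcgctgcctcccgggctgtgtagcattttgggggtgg
Jdp2, second start (chr12:85599228-85599415): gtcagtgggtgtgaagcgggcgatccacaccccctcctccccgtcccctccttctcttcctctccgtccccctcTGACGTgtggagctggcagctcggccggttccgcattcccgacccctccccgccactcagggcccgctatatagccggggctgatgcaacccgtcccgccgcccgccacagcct
Batf (chr12:85686470-85686668): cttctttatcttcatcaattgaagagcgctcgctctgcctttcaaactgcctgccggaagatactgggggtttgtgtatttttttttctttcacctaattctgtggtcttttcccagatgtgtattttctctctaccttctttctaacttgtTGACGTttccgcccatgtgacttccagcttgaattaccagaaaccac

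RefSeq had such windows for 9 of the 10 genes, 11 in all, since *Jdp2* has 3 starts. TGANTCA covers the classical AP-1 site of Fos and Jun dimers, but allows any base in the middle. It was in 0 of the 11 windows of 250 bases, where 6.75% of the 32851 windows of all genes held it. TGACGT was found in the windows of *Fos*, *Atf3*, *Batf* and the second start of *Jdp2*, against 6.47% of all windows. The match lay 66 bases before the RefSeq start of *Fos*, 98 bases before that of *Batf* and 114 bases before the second start of *Jdp2*. That of *Atf3* lay 8 bases before the start and runs into a GENCODE exon. The counts use all 250 bases of a window, exons included, and the *Fosl2* window has 0 bases outside exons. The full palindrome TGACGTCA, which contains TGACGT, was in 0 of the 11 windows and in 1.55% of all windows. TATAAA was in the window of *Fos* alone, 33 bases before the start, and in 12.4% of all windows. A match is a description of the letters in the window.

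*Jdp2* was the most highly expressed of the 10 genes per length. Its mean over the 8 libraries was 3741 ± 987 normalized counts per kb of exon (SD, n = 8), 2.59 times that of the next gene and above it in 8 of 8 libraries. *Atf3* (1443 ± 169), *Fos* (1429 ± 203) and *Junb* (1301 ± 170) came next and differed from each other by less than their spread. *Junb*, which can restrain c-JUN and partners Fos in osteoclast precursors, stood above *Jun* in 8 of 8 libraries. *Jun* (783 ± 58.4) and *Jund* (725 ± 78.7) lay within their SD of each other, although *Jun* was higher in 8 of 8 libraries. *Fosl2* (552 ± 167) and *Batf* (465 ± 72.1) also overlapped. *Fosl1*, which encodes FRA-1, was low at 111 ± 11.8, and *Batf3*, known for its part in dendritic cells, was lowest at 21.4 ± 8.37 per kb. The levels rest on the summed length of all annotated exons, which need not be the length transcribed here.

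**Figure D1:**
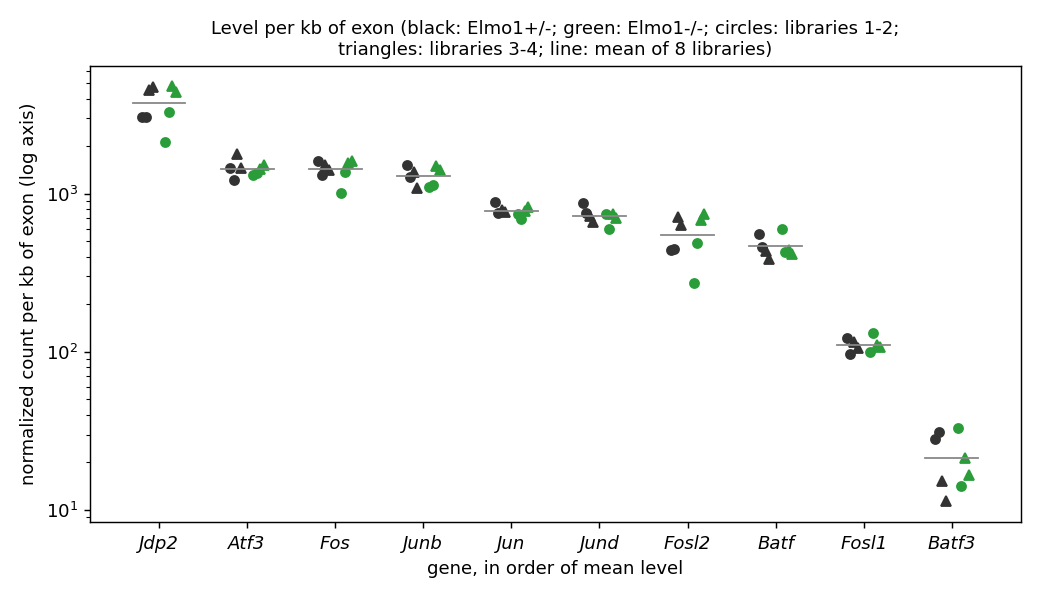
Normalized counts per kb of exon (log axis) of the 10 AP-1 genes in each of 8 libraries, in order of their means (grey lines). *Jdp2* lies on top, *Atf3*, *Fos* and *Junb* overlap below it, and *Batf3* lies lowest, with black for Elmo1+/-, green for Elmo1-/-, circles for libraries 1 and 2 and triangles for libraries 3 and 4.

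Of the summed level of the 10 genes per kb, *Jdp2* made up 34.9%, the 3 Jun genes 26.9%, the 3 Fos genes 19.7%, *Atf3* 13.8% and both Batf genes 4.75%, as means over the 8 libraries. The Elmo1+/- and Elmo1-/- means of these shares were 35.3% and 34.4% for *Jdp2*, 26.8% and 27.0% for the Jun genes, and 19.8% and 19.7% for the Fos genes. These genotype means lay close together beside the spread of single libraries, in which the share of *Jdp2* ran from 26.2% to 42.0%.

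No AP-1 gene passed the test between the genotypes. Log2 fold changes (Elmo1-/- relative to Elmo1+/-, on log2 of the normalized count + 1) lay between -0.12 for *Jdp2* and 0.04 for *Batf3*, with 3 genes above and 7 below 0. Their median was -0.07, against -0.00315 for all genes tested. Of the 10, 0 passed the threshold of 0.05 by limma with Benjamini-Hochberg adjustment across the whole table (each had an adjusted p = 0.9999), where 0.00707% of the genes tested passed. At an unadjusted p under 0.05 the count was also 0 of 10 by limma, by edgeR and by DESeq2. By limma 0.941% of the genes tested passed this level, and the smallest unadjusted p of a member was 0.332, for *Jund*. This fit held no term for the library sets. The 0.941% lies below the share of 0.05 that the threshold passes where no gene differs, so small differences could be missed. With the library number as a block, the smallest unadjusted p of a member was 0.218 by limma, again for *Jund*. The genotypes overlapped for all 10 genes, where 0.941% of the genes tested did not overlap, 0.502% with Elmo1-/- above and 0.439% with it below.

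**Figure D2:**
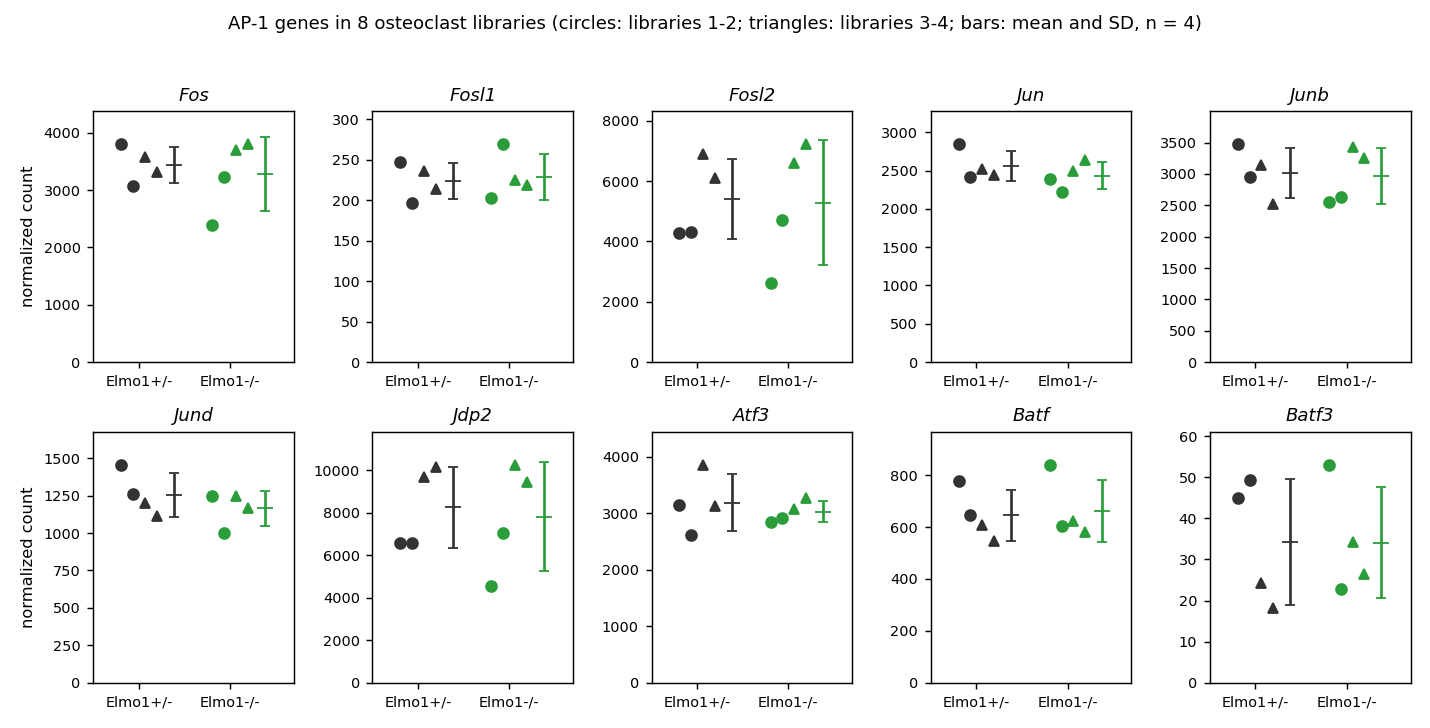
Normalized counts of the 10 AP-1 genes by genotype, 1 point per library, with the mean and SD of 4 libraries beside each group (linear axes from 0). Black and green points overlap in every panel, and the triangles (libraries 3 and 4) of *Fosl2* and *Jdp2* lie above all circles (libraries 1 and 2).

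*Fos*, the subunit that osteoclast formation depends on, had 3803, 3081, 3581 and 3309 normalized counts in Elmo1+/- libraries 1 to 4 and 2388, 3237, 3693 and 3800 in Elmo1-/- libraries 1 to 4. The lowest value was that of Elmo1-/- library 1, and the other Elmo1-/- values lay within the range of the controls. The means were 3444 ± 315 and 3279 ± 643 (SD, n = 4 each), a log2 fold change of -0.09 with a 95% interval of -0.42 to 0.24 by limma. With same-numbered libraries compared, Elmo1-/- was higher in 3 of 4, and in number 1 the log2 difference was -0.67. Pairing by number is not established, so this count depends on how the libraries are matched.

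*Fosl2* encodes FRA-2, a Fos protein that bone cells also use. Its normalized counts were 4287, 4303, 6918 and 6113 in Elmo1+/- libraries 1 to 4 and 2623, 4703, 6607 and 7231 in Elmo1-/- libraries 1 to 4. The number of the library ordered these values more than the genotype did. The log2 fold change was -0.10, with a 95% interval of -0.81 to 0.61 that narrowed to -0.49 to 0.29 with the library number as a block. The same block did not narrow every interval, and those of *Fos* (-0.44 to 0.26), *Fosl1* and *Junb* became slightly wider.

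*Fosl1*, a gene that c-FOS can switch on under RANKL, had 197 to 247 normalized counts in Elmo1+/- and 202 to 269 in Elmo1-/- libraries, and 155 to 281 reads in any library. Its log2 fold change was 0.03 (95% interval -0.24 to 0.31). The exons of *Ccdc85b* on the opposite strand cover 57.2% of the *Fosl1* exons, and whether the counting used strand is not given in the sources used here, so reads of these genes may not have been told apart. *Ccdc85b* had 60.0 to 126 normalized counts.

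Among the Jun genes, *Jun* was the steadiest of the 10. It had 2847, 2418, 2522 and 2443 normalized counts in Elmo1+/- libraries 1 to 4 and 2389, 2216, 2497 and 2636 in Elmo1-/- libraries 1 to 4. The highest and lowest libraries differed by only 1.28 times, and the 95% interval of the fold change, 0.839 to 1.08 around 0.952, was the narrowest in the family.

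*Junb* had 3476, 2945, 3138 and 2520 normalized counts in Elmo1+/- libraries and 2550, 2627, 3436 and 3256 in Elmo1-/- libraries 1 to 4. Each genotype held high and low libraries (log2 fold change -0.03, 95% interval -0.32 to 0.27). *Jund*, which often opposes the growth-promoting Jun and Fos dimers, had 1454, 1260, 1198 and 1111 in Elmo1+/- and 1246, 999.7, 1245 and 1166 in Elmo1-/- libraries, a log2 fold change of -0.11 (95% interval -0.35 to 0.13). *Junos*, *Prdx2* and *Gm11175* overlap *Jun*, *Junb* and *Jund* on the opposite strand over 7.28%, 7.52% and 52.6% of their exons. *Prdx2* was abundant, at 8761 to 10192 normalized counts, *Junos* had 155 to 262, and *Gm11175* was at 0 in all 8 libraries.

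*Jdp2*, whose product takes part in RANKL-driven osteoclast formation, had 6590, 6597, 9678 and 10144 normalized counts in Elmo1+/- libraries 1 to 4 and 4541, 7035, 10253 and 9451 in Elmo1-/- libraries 1 to 4. As for *Fosl2*, the low values were those of libraries 1 and 2 of both genotypes. The means were 8252 ± 1925 and 7820 ± 2579 (SD, n = 4 each), a log2 fold change of -0.12. Its 95% interval was -0.72 to 0.49, or -0.35 to 0.12 with the library number as a block.

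*Atf3*, a stress-induced gene, had 3153, 2618, 3855 and 3129 normalized counts in Elmo1+/- and 2850, 2917, 3081 and 3266 in Elmo1-/- libraries 1 to 4. The Elmo1-/- values all lay within the range of the controls (log2 fold change -0.06, 95% interval -0.32 to 0.19).

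*Batf*, a partner of Jun proteins in immune cells, had 779, 646, 609 and 546 normalized counts in Elmo1+/- and 839, 606, 624 and 582 in Elmo1-/- libraries 1 to 4. Library 1 was the highest of each genotype. The log2 fold change was 0.04 (95% interval -0.29 to 0.36). *Batf3* had 45.1, 49.4, 24.4 and 18.1 in Elmo1+/- and 53.0, 22.7, 34.2 and 26.4 in Elmo1-/- libraries, on 16 to 56 reads per library. The 95% interval of its fold change, 0.565 to 1.86 around 1.02, was the widest in the family, and changes within it are compatible with these libraries.

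**Figure D3:**
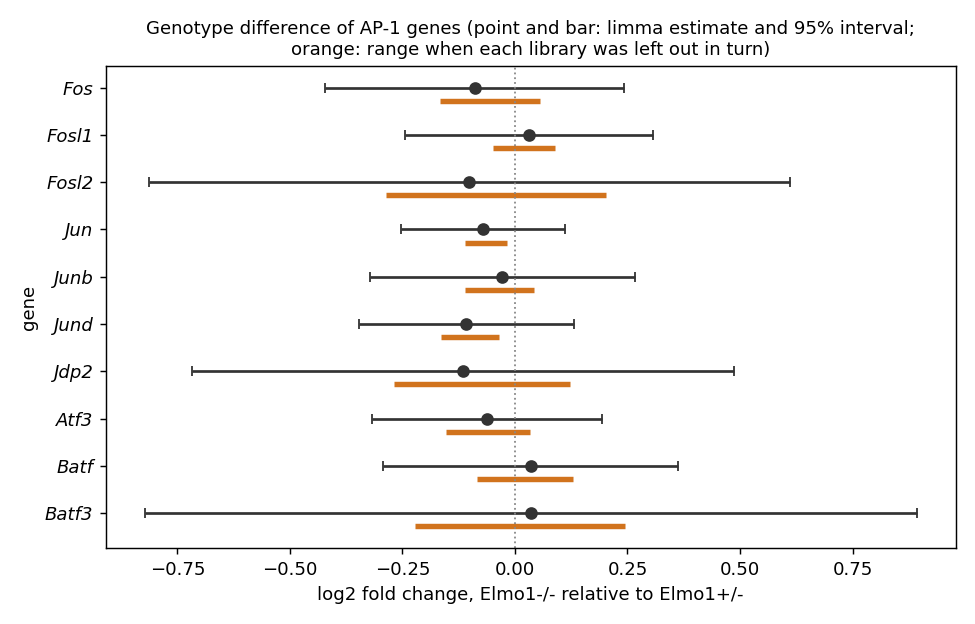
Log2 fold change of each AP-1 gene, Elmo1-/- relative to Elmo1+/-, with its 95% interval by limma (black) and the range when each of the 8 libraries was left out in turn (orange). All 10 intervals include 0, *Jun* has the narrowest and *Batf3* the widest.

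Exact two-sided permutation tests of the same difference gave p between 0.400 and 0.914 for the 10 genes, where 4 libraries against 4 cannot go below 0.0286. Leaving out Elmo1-/- library 1 moved *Fos* to 0.06, *Fosl2* to 0.20, *Jdp2* to 0.12 and *Junb* to 0.04 on the log2 scale. It moved *Batf* to -0.08 and *Batf3* to -0.20, with 0 of the 10 genes past the threshold. Other libraries left out in turn also changed the direction of some of the genes, and the cause was not tested. Within libraries 1 and 2 alone, the log2 difference was -0.30 for *Fos*, -0.29 for *Fosl2*, -0.19 for *Jun*, -0.31 for *Junb*, -0.28 for *Jund* and -0.43 for *Batf3*, and within libraries 3 and 4 alone the same genes had 0.12, 0.09, 0.05, 0.25, 0.06 and 0.50. *Fosl1* (0.08 and -0.02) and *Atf3* (0.01 and -0.13) took the opposite order, *Jdp2* was below 0 in both (-0.22 and -0.01) and *Batf* above 0 in both (0.01 and 0.06). These are 2 libraries against 2, described without a test.

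For each of the genes but *Jun*, *Jund* and *Fosl1*, the mean log2 difference between libraries 1 and 2 and libraries 3 and 4 was larger than that between the genotypes. For *Fosl2*, libraries 3 and 4 of both genotypes (6113 to 7231 normalized counts) all lay above libraries 1 and 2 (2623 to 4703), with a ratio of means of 1.69. For *Jdp2*, the ranges were 9451 to 10253 and 4541 to 7035, with a ratio of 1.60. These were the only 2 of the 10 genes without overlap, both higher in libraries 3 and 4, where 18.1% of the genes tested had that pattern and 34.0% did not overlap in either direction. The count is thus near that of genes in general. The other 8 genes overlapped between the sets. *Batf3* and *Batf* were lower on average in libraries 3 and 4, with mean log2 differences of -0.67 and -0.27, while *Fos*, *Atf3*, *Junb* and *Jun* were at 0.22, 0.21, 0.09 and 0.04 and *Jund* and *Fosl1* at -0.06 and -0.02. The osteoclast marker sum was 1.97 times as high and the macrophage sum 0.717 times as high in libraries 3 and 4, and the part of this in the AP-1 differences was not tested.

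Of 6 ratios between subunits, 3 did not overlap between the sets, and each of these holds *Fosl2* or *Jdp2*, the genes that themselves did not overlap. The share among ratios of other genes was not measured, and 34.0% of the single genes tested did not overlap between the sets. *Fosl2* relative to *Fos*, per kb, was 0.267 to 0.353 in libraries 1 and 2 and 0.435 to 0.469 in libraries 3 and 4. *Jdp2* relative to *Batf* was 3.54 to 7.60 in libraries 1 and 2 and 10.4 to 12.2 in libraries 3 and 4. *Jdp2* and its neighbour *Fos* also came apart, at ratios of 1.90 to 2.38 and 2.72 to 3.36. By contrast, *Fosl2* relative to *Jdp2* was 0.128 to 0.170 over all 8 libraries and overlapped between the sets, as did *Junb* relative to *Jun* (1.43 to 1.91) and to *Fos* (0.778 to 1.09). Between the genotypes the 6 ratios all overlapped, with *Fosl2* to *Fos* at 0.383 ± 0.0924 in Elmo1+/- and 0.379 ± 0.0881 in Elmo1-/- (SD, n = 4 each, exact two-sided permutation test p = 0.914).

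The genes around AP-1 were read from 5 lists. Of 18 further AP-1 and bZIP genes, 17 were tested and 0 passed in either direction (smallest adjusted p = 0.9999 by limma), with 0 at an unadjusted p under 0.05 and a median log2 fold change of -0.02. *Fosb*, the remaining Fos gene, was nearly absent at 1.79 ± 0.745 and 1.63 ± 0.852 normalized counts (SD, n = 4 each), below the filter. *Batf2*, an interferon-inducible relative of *Batf*, had the highest difference of this list, 105 ± 25.9 in Elmo1+/- and 148 ± 52.2 in Elmo1-/- (log2 fold change 0.47, 95% interval -0.15 to 1.08), and *Atf5* the lowest (-0.20). *Atf4*, the stress factor that dimerizes with Jun and Fos, had -0.08, and at 3882 normalized counts per kb its mean level lay near that of *Jdp2*.

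Of 28 genes upstream of AP-1, from RANK to the MAP kinases, RAC and the DUSP phosphatases, all were tested, 0 passed and 0 had an unadjusted p under 0.05 (median 0.01). *Traf6*, the adaptor of RANK, was at -0.05, the JNK genes *Mapk8* and *Mapk9* at 0.01 and 0.03, and *Rac1*, the GTPase that ELMO1 and DOCK act on, at 0.00481 (95% interval -0.13 to 0.14). The range ran from -0.30 for *Dusp1*, a phosphatase that turns MAP kinases off, to 0.06 for the p38 kinase kinase *Map2k6*. These are RNA levels, and the activity of the encoded kinases and GTPases was not measured in these libraries.

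Of 14 osteoclast genes that act downstream of Fos and NFATc1, all were tested, 0 passed and 0 had an unadjusted p under 0.05 (median -0.10). *Nfatc1* was at 0.02 (95% interval -0.54 to 0.57), and *Ctsk*, the collagen-degrading protease of osteoclasts, was lowest at -0.30 (95% interval -1.58 to 0.97), with *Ocstamp*, a gene for cell fusion, highest at 0.03. *Acp5*, which encodes TRAP, was at -0.22. In all 14 of these genes libraries 3 and 4 lay above libraries 1 and 2, where 18.1% of the genes tested did so, with a median log2 difference of 1.05. In the other lists, genes without overlap are given as above and below, where 18.1% and 15.8% of the genes tested were so. They were 1 and 6 of 17 for the further AP-1 and bZIP genes and 7 and 5 of 28 for the upstream genes. For the immediate early genes they were 2 and 2 of 17, and for the IRF and NFAT list described next 2 and 3 of 9.

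Of 18 immediate early genes, which like *Fos* respond to a stimulus within minutes, 17 were tested, 0 passed and 0 had an unadjusted p under 0.05 (median -0.08). *Egr1* was lowest at -0.96 (95% interval -3.13 to 1.21), through a value of 1137 normalized counts in Elmo1+/- library 1 against 44.2 to 125 in the other controls, and *Hspa1a*, a heat shock gene, was highest at 0.22. *Fos* in that library, at 3803, was the highest control value, in a control range that began at 3081. Of 10 IRF, NFAT and other partners of AP-1, 9 were tested, 0 passed and 0 had an unadjusted p under 0.05 (median 0.03). *Irf1* was highest at 0.24 (95% interval -0.04 to 0.52), *Spi1*, which encodes PU.1, lowest at -0.04, and *Irf8*, a BATF partner that restrains osteoclast formation, at 0.08. *Irf8* was lower in libraries 3 and 4 than in 1 and 2 without overlap (log2 difference -0.56), as were 15.8% of the genes tested.

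**Figure D4:**
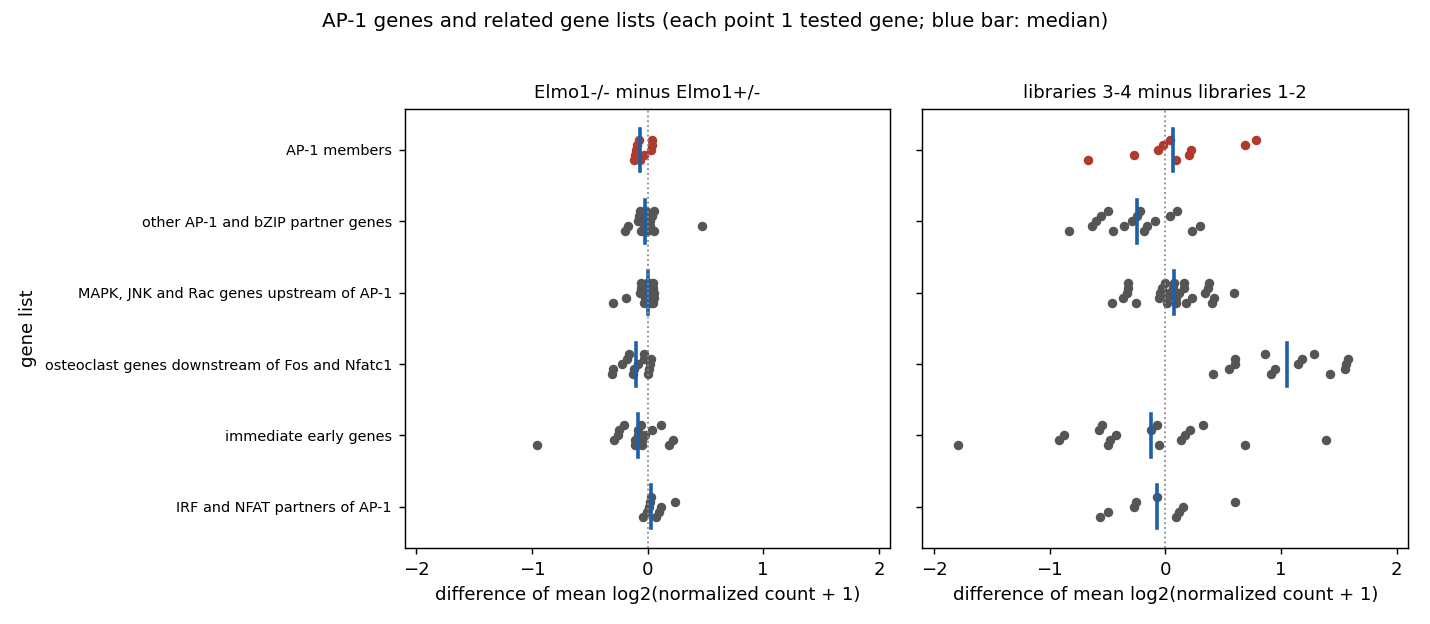
Differences of mean log2(normalized count + 1) for the 10 AP-1 genes (red) and 5 related lists (grey, 1 point per tested gene), Elmo1-/- minus Elmo1+/- on the left and libraries 3 and 4 minus libraries 1 and 2 on the right, with list medians in blue. Points on the left gather at 0, with *Egr1* at -0.96, while on the right the osteoclast genes have a median of 1.05 and the AP-1 genes spread from -0.67 to 0.79.

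The genes whose pattern over the 8 libraries was nearest to that of *Fos*, by the root mean square difference of centred log2 values, were *Kctd12* (0.0542), *Boc* (0.0642) and *Irf2bpl* (0.0733), where the SD of *Fos* itself was 0.224. Of the AP-1 genes the nearest was *Junb*, at 0.140 and place 379 of the genes tested, then *Jun* at 0.172. The other Fos gene with high counts, *Fosl2*, was at 0.313, and *Batf3* was farthest at 0.639. A gene that varies little lies close to any steady gene by this measure, so the places describe likeness in these libraries alone.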

How the data were processed

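mRNA libraries (Illumina TruSeq, 75 bp paired-end reads) of 4 Elmo1+/- and 4 Elmo1-/- mice were analysed, with genotypes from the genotype labels. The methods of the study give 2 mice per genotype in each experiment, but not which. The authors deposited a normalized signal for 46517 Ensembl identifiers: reads per gene after DESeq2 scaling by a size factor for each library. FastQC, STAR, featureCounts and DESeq2 are named in the submitters' processing notes, with no versions, and the sources used here do not give the genome build. The authors' deposited mean signal and their own comparison (log2 fold change, its error, a score and p-value columns) were not used. Symbols, positions and exon lengths came from GENCODE M21 (GRCm38), which matched 46005 identifiers. Each library's values are whole multiples of a step worth 1 read (100% of them, tolerance 0.01 read), from which totals of 20905502 to 40846651 reads were recovered. In Elmo1+/- library 2 this step, 0.989, is so close to 1 that automated recognition of it fails. Its recovered reads enter the count-based alternatives, the other scalings and the read totals and ranges given here, but not the main fit.

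limma 3.58.1 in R 4.3.3 (trend and robust settings) was fitted to log2(normalized count + 1). Genes that reached 10 in 4 or more libraries entered, with Benjamini-Hochberg adjustment over all of them. The fit was also tested on simulated data. These held no library sets and planted changes larger than those of the AP-1 genes, so that test does not cover changes as small as theirs. Alternatives were edgeR 4.0.16 and DESeq2 1.42.0 on recovered reads, other scalings, filters and pseudocounts, each library left out, the replicate number as a block and the library set as a term. The correlation across genes of deviations from genotype means was 0.156 to 0.703 for the 4 same-numbered pairs, over 0.1 in each. These values met the rule used for pairing by number (every pair over 0.1). Pairs of different numbers within a set (1 and 2, or 3 and 4) gave 0.0259 to 0.691. Elmo1-/- library 4 correlated more with Elmo1+/- library 3 (0.614) than with Elmo1+/- library 4 (0.520). The rule thus cannot tell pairing by number from the sets, and pairing by number is not established. The 10 genes and the lists were chosen with earlier results of these data known. Named list genes were a set chosen by name, some of which are not reported here, and the lowest and highest log2 fold change of each list. The libraries are 1 per mouse. Python 3.11.15 was used.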

Additional observations from a re-analysis of the deposited data

Results flagged for a closer look

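In 60 groups of 4 libraries (30 genes in each genotype), 5 held 1 library set off from the rest, with a gap past Dixon's 95% critical value, which chance passes in about 1 group in 20 of genes not chosen by their values. That share does not hold here, since genes at the lowest and highest log2 fold change of a list are among the 30. All 5 were library 1 of a genotype. *Batf* had 839 normalized counts in Elmo1-/- library 1 against 582 to 624 in the other Elmo1-/- libraries. In the same library *Atf4* had 11132 against 7977 to 8445, *Atf5* 3137 against 1321 to 1402 and *Egr1* 186 against 44.3 to 56.8. *Egr1* also had 1137 in Elmo1+/- library 1 against 44.2 to 125 in the other controls.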

How the results depend on the processing

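None of the 10 AP-1 genes passed the threshold under any of the 18 alternatives with a test (smallest adjusted p of a member 0.936, by limma without Elmo1-/- library 1), and the count was 0 in each, with the libraries left out in turn giving 0 to 0. Over all genes, 1 gene passed, 2 with DESeq2, and between 1 and 2 with each library left out, 2 without Elmo1+/- library 2. With the replicate number as a block 1 gene passed, *Elmo1* (-2.44), with 0 AP-1 genes, and the block changed no call. *Batf3* turned to -0.016 with edgeR and to -0.013 with DESeq2 and was not tested with a minimum of 50. Leaving out each library in turn gave log2 fold changes of -0.17 to 0.056 for *Fos*, -0.049 to 0.088 for *Fosl1*, -0.29 to 0.20 for *Fosl2*, -0.11 to 0.043 for *Junb*, -0.27 to 0.12 for *Jdp2*, -0.15 to 0.033 for *Atf3*, -0.084 to 0.13 for *Batf* and -0.22 to 0.25 for *Batf3*, which crossed 0, and -0.11 to -0.018 for *Jun* and -0.16 to -0.035 for *Jund*, which did not. The direction turned without Elmo1-/- library 1 for *Fos*, *Fosl2*, *Junb*, *Jdp2*, *Batf* and *Batf3*, without Elmo1-/- library 2 for *Fosl1* and *Junb*, and without Elmo1+/- library 1 for *Junb*, 2 for *Fosl1*, 3 for *Fosl2*, *Atf3* and *Batf3*, and 4 for *Batf* and *Batf3*. The cause was not tested. The 4 libraries per genotype leave 95% intervals of up to 1.72 log2 units, for *Batf3*, and changes within an interval are compatible with these libraries.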
